A study of Homo sapiens with 12 samples.

Results

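The mRNAs of the MYC, MAX and MXD network were examined in 2 EGFR-mutant lung cancer lines before and after EGFR inhibition. The 10 members are the rows of the deposited gene table that carry the symbols MYC, MYCN, MYCL, MAX, MXD1, MXD3, MXD4, MXI1, MNT and MGA, out of 60591 genes, and all 10 were among the 19108 genes tested. PC9 and H1650 are established lines derived from non-small cell lung cancers, and both carry the activating EGFR deletion delE746-A750. In each line, the 3 groups were cells taken at the time of drugging (T0, 0 h, 0.1% DMSO), cells after 36 h with 10 μM erlotinib, and cells after 36 h with 0.1 μM osimertinib. Each group had 2 replicates, giving 12 polyA RNA-seq libraries, which the study describes as biological replicates. Erlotinib is a reversible EGFR kinase inhibitor and osimertinib an irreversible one, and their doses differed, so values under the drugs are set side by side at unequal doses. No vehicle library taken at 36 h was analysed here, so a change against T0 holds the drug and the time in culture, and these cannot be told apart.

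MYC, MYCN and MYCL are basic helix-loop-helix leucine zipper factors that bind E-box DNA as heterodimers with MAX and activate genes of growth, nucleotide synthesis and ribosome production. The MXD proteins (MXD1, MXD3, MXD4 and MXI1) and MNT bind MAX in place of MYC, occupy the same E-boxes and recruit the SIN3 and histone deacetylase corepressors, while MGA is a large MAX partner that belongs to a Polycomb repressive complex. MXD genes are known for their expression in cells that leave the cycle and differentiate, and MYC transcription lies downstream of growth factor signalling in epithelial cells.

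The libraries held 17961765 to 26346187 counted reads. Levels are given as CPM, read counts relative to the library total after TMM scaling, in which a count of 0 allowed up to 3 reads or 0.116 to 0.168 CPM (counting error only). Epithelial markers were abundant, with a sum over EPCAM, KRT8, KRT18, KRT19 and CDH1 of 5166 to 9156 CPM. The lung lineage markers NKX2-1 and SFTPB had at most 2 and 4 reads in any library and NAPSA at most 1.85 CPM, so these markers did not mark the lines as lung cells. The 3 leukocyte markers together stayed at or below 0.839 CPM, the 3 endothelial markers at or below 5.55 CPM, and the 3 fibroblast markers ranged from 16.9 to 45.8 CPM. Mitochondrial genes took 4.54% to 5.17% of the counts at T0 and 6.32% to 7.20% under drug in PC9, and 4.36% to 5.36% at T0 and 5.77% to 6.60% under drug in H1650. In each line this share was higher in every treated library than at T0, and its part in the changes against T0 was not tested. In bulk RNA, fewer cells of a type and less RNA per cell cannot be told apart.

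The promoters of the 3 network genes that rose in PC9 cells with either drug are shown first, because E-boxes are the network's own binding element and FOXO factors act downstream of PI3K and AKT. In the RefSeq table (GRCh38.p14), 9 of the 10 members had an entry. The E-box CACGTG, which reads the same on both strands, was found once at MXD4 (-238 from the start site) and once at MNT (-193). The FOXO motif GTAAACA, searched on both strands, was found at 2 of the 3 listed start sites of MXI1 (at -151 and -2). The first of these matches lies on the opposite strand, where the printed strand reads TGTTTAC. The E-box and the FOXO motif occurred in 7.26% and 3.42% of the 35116 promoters of the table. The E2F motifs TTTCCCGC and TTTGGCGC, also searched on both strands, were found at MYCN (-176) and at 1 listed start site of MGA (-65). They occurred in 2.27% of the promoters. Such matches are a description of the letters. None of the matches overlapped another motif. Each sequence below is the 250 bases before a start site, with the motif in capitals. MXD4 is read from the minus strand at chr4:2262110-2262359, MNT from the minus strand at chr17:2401061-2401310, and MXI1 from the plus strand at chr10:110209981-110210230.
MXD4: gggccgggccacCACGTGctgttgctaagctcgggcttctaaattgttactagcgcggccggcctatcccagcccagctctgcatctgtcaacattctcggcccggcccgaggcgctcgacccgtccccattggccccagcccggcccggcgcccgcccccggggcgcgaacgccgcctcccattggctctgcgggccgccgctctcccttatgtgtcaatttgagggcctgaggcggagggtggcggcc
MNT: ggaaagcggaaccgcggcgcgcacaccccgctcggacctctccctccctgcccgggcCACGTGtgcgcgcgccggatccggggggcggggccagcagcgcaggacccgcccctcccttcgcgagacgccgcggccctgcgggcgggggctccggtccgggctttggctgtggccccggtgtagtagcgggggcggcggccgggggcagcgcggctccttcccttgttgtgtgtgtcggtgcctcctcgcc
MXI1: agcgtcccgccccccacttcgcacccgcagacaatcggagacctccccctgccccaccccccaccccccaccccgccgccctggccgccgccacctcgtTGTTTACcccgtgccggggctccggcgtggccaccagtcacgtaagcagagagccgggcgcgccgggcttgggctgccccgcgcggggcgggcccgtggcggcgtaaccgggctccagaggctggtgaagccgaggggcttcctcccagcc

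Between H1650 and PC9 at T0, 9 of the 10 members differed at an adjusted p under 0.05 (edgeR's quasi-likelihood test, Benjamini-Hochberg adjustment over all genes tested), against 69.6% of all genes tested. Without MYCN, whose call follows from how it entered the test, 8 of 9 members differed. MYC, MAX, MNT and MGA were higher in PC9, and MYCN, MYCL, MXD3, MXD4 and MXI1 were higher in H1650. MXD1 was at 13.7 ± 1.19 CPM in PC9 and 12.1 ± 0.857 in H1650 (mean ± SD, n = 2), with a log2 difference of -0.18 (95% interval -0.43 to 0.08). The MGA difference was small at -0.29, and its call was lost without PC9 T0 replicate 2 (-0.18, adjusted p 0.271) or without H1650 T0 replicate 2 (-0.23, adjusted p 0.150).

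MYC was at 122 and 118 CPM in the PC9 T0 libraries and at 70.1 and 60.9 CPM in those of H1650. MAX, the obligate partner, was at 70.3 and 67.3 CPM in PC9 and at 28.4 and 28.0 CPM in H1650. For both genes the lines did not overlap, and H1650 was lower by a log2 difference of -0.88 ± 0.08 (SE) for MYC and -1.29 ± 0.09 for MAX (adjusted p 1.5e-10 and 2.7e-13). Among members with a fold, MXD3 had the widest gap in the opposite direction, at 16.5 and 15.7 CPM in PC9 against 46.0 and 38.6 CPM in H1650. RAB24, whose exons overlap those of MXD3 on the same strand, was also higher in H1650 at T0 (log2 difference 2.11 ± 0.23), and its part in the MXD3 gap was not tested. MXD4 and MXI1 began low in PC9, at means of 16.2 and 12.7 CPM, against 37.5 and 20.1 CPM in H1650. MYCN, the neural and lung developmental paralogue, had 0 reads in all 6 PC9 libraries and between 6 and 14 reads in each H1650 library. Its mean in H1650 at T0 was 1.84-fold of what 3 reads per PC9 library would give, leaving out the counting error of its own 7 and 6 reads there. Since MYCN entered the test only through its H1650 reads, a difference between the lines was built into its testing. MYCL, first found amplified in small cell lung cancer, averaged 3.67 CPM in PC9 and 8.09 CPM in H1650.

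**Figure D1:**
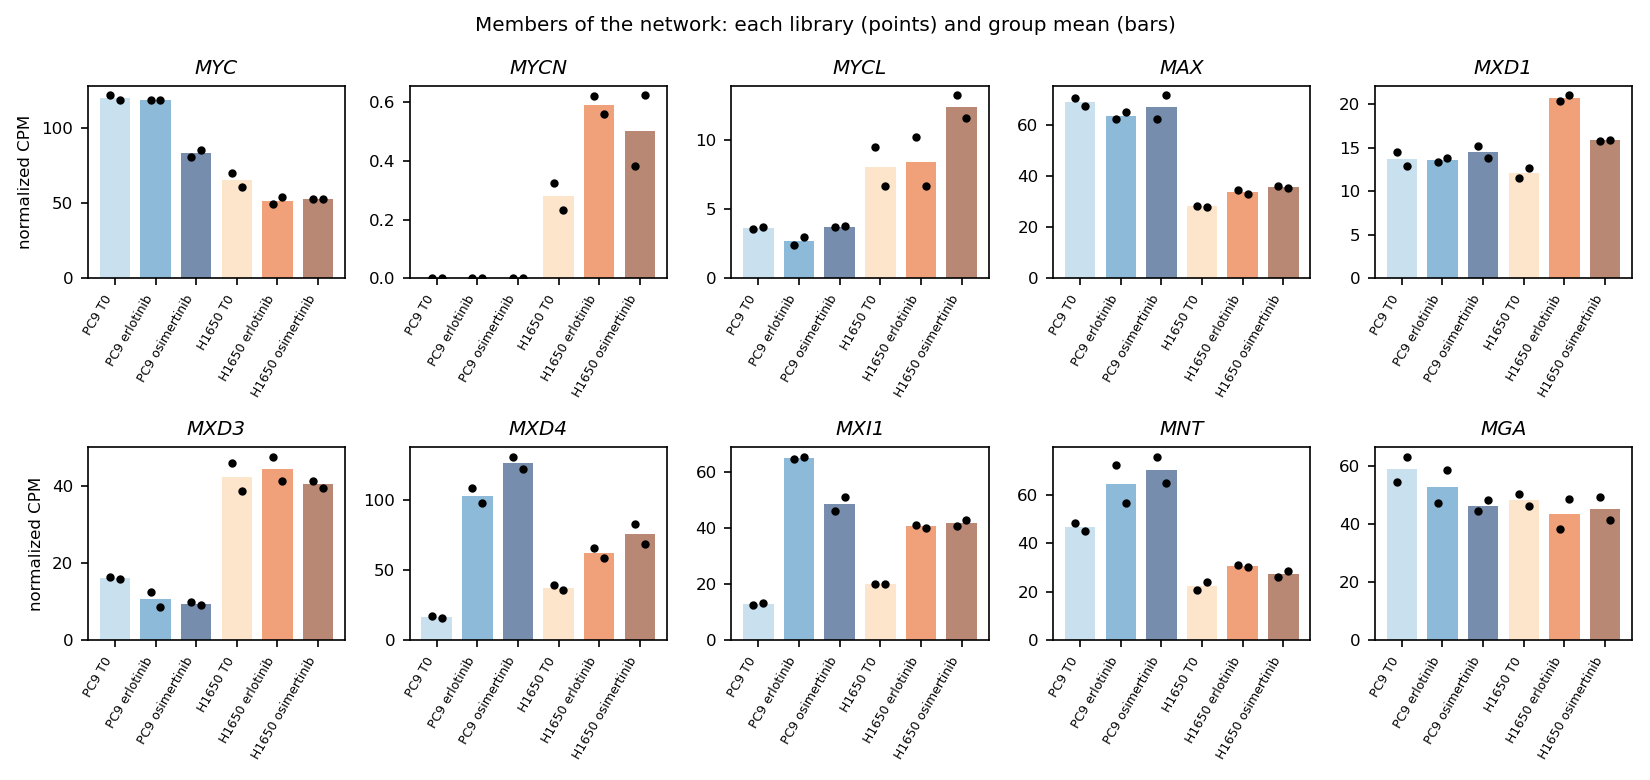
Normalized CPM of the 10 members (vertical axis, from 0, a separate scale for each gene) in the 6 groups, with each library as a point and the mean of the 2 libraries as a bar. MXD4 and MXI1 stand at means of 16.2 and 12.7 CPM at T0 in PC9 and at 48.4 CPM or more under either drug, while MYC stays at 118 CPM under erlotinib.

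After scaling by the deposited gene lengths (TPM, in which every library has the same total), MYC was the most abundant member at T0 in both lines. In PC9 at T0, MYC at 88.8 ± 0.544 TPM was followed by MAX (37.3), MNT (18.2), MGA (11.3) and MXD3 (10.6). The libraries of MGA and MXD3 overlapped. Next came MXD4 (7.98), MXD1 (7.33) and MXI1 (7.29), in which MXD1 overlapped both of its neighbours, and MYCL (2.46) was the lowest of the members with reads. In H1650 at T0 the order was MYC (50.7), MXD3 (29.1), MXD4 (19.4), MAX (15.96), MXI1 (12.04), MGA (9.68), MNT (9.14), MXD1 (6.76) and MYCL (5.68). There the libraries of MGA and MNT overlapped, as did those of MXD1 and MYCL. Under osimertinib in PC9, MXD4 at 63.5 and 58.6 TPM overlapped MYC at 58.4 and 61.5 TPM.

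Against T0, MXD4 and MXI1 rose with both drugs in both lines, and MYC fell in 3 of these 4 comparisons. The calls were 4 of 10 members in PC9 under erlotinib (61.8% of all genes tested), 6 of 10 in PC9 under osimertinib (61.4%), 6 of 10 in H1650 under erlotinib (36.5%) and 6 of 10 in H1650 under osimertinib (35.7%). Members called higher numbered 3, 3, 5 and 5 in that order, against 32.7%, 32.7%, 18.0% and 17.8% of all genes. Members called lower numbered 1, 3, 1 and 1, against 29.1%, 28.7%, 18.5% and 17.9%. In PC9 these shares lay near or below the background, so the number of members called there is no result about the network. The median log2 change of the members was -0.02 and 0.03 in PC9 (9 members with a fold) and 0.35 and 0.36 in H1650 (10 members), and the median over all genes was 0.07, 0.06, 0.01 and 0. The comparisons of a line share their T0 libraries.

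**Figure D2:**
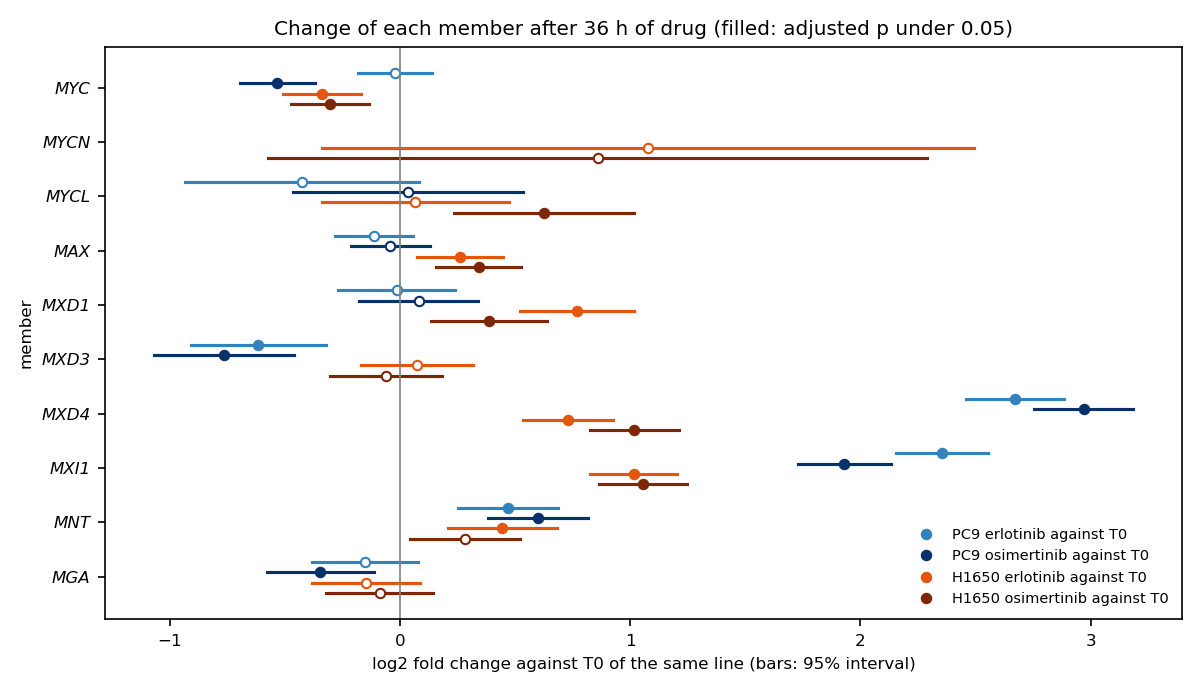
Log2 fold change against T0 of the same line (horizontal axis) for each member under each drug, with the 95% interval as a bar and filled points where the adjusted p was under 0.05. MXD4 reaches 2.67 and 2.97 and MXI1 2.35 and 1.93 in PC9, whereas MYC lies between -0.53 and -0.02 in the 4 comparisons, and MYCN has no fold in PC9.

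MXD4 (chr4:2247432-2262294, minus strand, GRCh38), a MAX-binding repressor of the MXD group, showed the highest rise of the network in PC9. Its PC9 libraries held 16.9 and 15.4 CPM at T0, 109 and 97.8 CPM under erlotinib, and 131 and 122 CPM under osimertinib. The H1650 libraries held 39.5 and 35.6 CPM at T0, 65.6 and 58.7 CPM under erlotinib, and 83.0 and 68.9 CPM under osimertinib. Treated and T0 libraries did not overlap in either line. The rise was 6.38-fold with erlotinib and 7.84-fold with osimertinib in PC9 (log2 2.67 ± 0.10 and 2.97 ± 0.10, adjusted p 1.5e-18 and 1.5e-19), and 1.66-fold and 2.03-fold in H1650 (0.73 ± 0.10 and 1.02 ± 0.10, adjusted p 6.5e-07 and 1.8e-09). MXD4 was lower in PC9 than in H1650 at T0 and higher in PC9 under both drugs, where H1650 stood at -0.73 ± 0.09 (erlotinib) and -0.74 ± 0.09 (osimertinib) against PC9.

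MXI1 (chr10:110207605-110287365, plus strand), also known as MXD2, rose alongside MXD4. In PC9 it went from 12.4 and 13.03 CPM at T0 to 64.5 and 65.3 CPM under erlotinib and 45.8 and 51.1 CPM under osimertinib. In H1650 it went from 20.1 CPM in both T0 libraries to 41.1 and 39.9 CPM under erlotinib and 40.6 and 42.8 CPM under osimertinib. The treated libraries lay above T0 in both lines, and in PC9 the erlotinib libraries lay above the osimertinib libraries. MXI1 rose 5.11-fold and 3.81-fold in PC9 and 2.02-fold and 2.08-fold in H1650, in the same drug order (log2 2.35 ± 0.10, 1.93 ± 0.10, 1.01 ± 0.09 and 1.06 ± 0.09). No library left out and no other setting took away the rise of MXD4 or MXI1 against T0 in either line.

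MXD1, the founding member of the MXD group, passed the test in H1650 and not in PC9. It lay between 12.9 and 15.2 CPM in all 6 PC9 libraries, with log2 changes of -0.01 (95% interval -0.27 to 0.24) and 0.08 (-0.18 to 0.34). In H1650 it was at 11.5 and 12.7 CPM at T0, 20.3 and 21.0 CPM under erlotinib and 15.8 and 15.9 CPM under osimertinib, and the 3 groups did not overlap. The erlotinib rise in H1650 was 0.77 ± 0.12 (adjusted p 1.0e-05), or 1.70-fold. The osimertinib rise was 0.39 ± 0.12 (adjusted p 0.0146), and the MXD1 call was lost without H1650 T0 replicate 1 (0.32, adjusted p 0.132), osimertinib replicate 1 (0.39, 0.0590) or osimertinib replicate 2 (0.38, 0.0709).

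MXD3, the MXD group member described in S-phase cells, was the group's exception in direction. In PC9 it went from 16.5 and 15.7 CPM to 12.6 and 8.55 CPM under erlotinib and 9.94 and 8.97 CPM under osimertinib, all below T0, a log2 change of -0.62 ± 0.14 and -0.76 ± 0.15 (adjusted p 4.7e-04 and 5.8e-05). In H1650 the T0, erlotinib and osimertinib libraries overlapped between 38.6 and 47.6 CPM, with log2 changes of 0.07 (-0.17 to 0.32) and -0.06 (-0.31 to 0.18). The exons of MXD3 (chr5:177301461-177312757, minus strand) overlap those of RAB24 on the same strand over 18% of their length and those of PRELID1 on the opposite strand over 22.5%. Whether reads were counted by strand is not given in the sources used here, so its counts are uncertain. PRELID1 changed by -1.34 and -1.54 in PC9 and -0.54 and -0.42 in H1650, while RAB24 changed by 1.23 and 0.84 in PC9, and their part in the MXD3 values was not tested.

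MNT and MGA, the MAX partners outside the MXD group, moved less. MNT (chr17:2384060-2401118, minus strand), a broadly expressed repressor, went in PC9 from 48.2 and 45.0 CPM to 72.5 and 56.6 CPM under erlotinib and 75.8 and 65.1 CPM under osimertinib. In H1650 it went from 20.7 and 24.2 CPM to 31.2 and 30.0 CPM and to 25.97 and 28.7 CPM. Every treated library lay above the T0 libraries of its line. The change passed the test in PC9 (0.47 ± 0.11 and 0.60 ± 0.11, adjusted p 3.6e-04 and 1.7e-05) and in H1650 with erlotinib (0.44 ± 0.12, adjusted p 0.00303), and with osimertinib in H1650 it was 0.28 ± 0.12 (adjusted p 0.0589). Without H1650 T0 replicate 1 the MNT value with erlotinib was 0.34 (adjusted p 0.0592). The osimertinib value passed the test without H1650 T0 replicate 2 (0.40, 0.0304), without either PC9 erlotinib library (0.28, 0.0309 and 0.0299) and in a fit of H1650 alone (0.28, 0.0390).

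MGA, at 38.2 to 63.1 CPM over all libraries, fell with osimertinib in PC9 by 0.35 on the log2 scale (SE 0.11, adjusted p 0.00999). Its PC9 libraries held 54.3 and 63.1 CPM at T0 and 44.4 and 48.1 CPM with osimertinib, which did not overlap. The MGA call was lost without PC9 T0 replicate 2 (-0.24, adjusted p 0.154) or without PC9 osimertinib replicate 1 (-0.29, adjusted p 0.0957). In the other 3 comparisons MGA changed by -0.15, -0.15 and -0.09, and its treated and T0 libraries overlapped. MGA passed the test with erlotinib without PC9 erlotinib replicate 2 (-0.32, 0.0296) and without H1650 erlotinib replicate 2 (-0.34, 0.0498).

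MYC mRNA fell in 3 of the 4 comparisons. In PC9 it stood at 118 CPM in both erlotinib libraries, next to 122 and 118 CPM at T0, and at 80.4 and 85.5 CPM under osimertinib. In H1650 it stood at 49.3 and 54.1 CPM under erlotinib and 53.0 CPM in both osimertinib libraries, all below the T0 libraries. The PC9 change with erlotinib was -0.02 (95% interval -0.18 to 0.14), and with osimertinib MYC fell by 0.53 on the log2 scale (SE 0.08, adjusted p 1.4e-06), or 1.45-fold. In H1650 MYC changed by -0.34 ± 0.08 with erlotinib (adjusted p 0.00167) and -0.30 ± 0.08 with osimertinib (adjusted p 0.00430). The study, which also immunoblotted MYC protein, describes MYC mRNA as unchanged in erlotinib-treated cells of these lines. Both MYC calls in H1650 were lost without H1650 T0 replicate 1, where the values were -0.24 (adjusted p 0.0766) and -0.20 (adjusted p 0.150). Without that library 3 of 10 members were called in H1650 under erlotinib.

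The paralogues of MYC stayed far below it. MYCL in H1650 was at 9.51 and 6.68 CPM at T0, 10.2 and 6.70 CPM under erlotinib, and 13.3 and 11.6 CPM under osimertinib, where both libraries lay above the others of the line. The osimertinib change was 0.63 ± 0.19 (adjusted p 0.0109), and the MYCL call was lost without H1650 T0 replicate 2 (0.38, adjusted p 0.208) or osimertinib replicate 1 (0.53, adjusted p 0.0944). In PC9 MYCL lay between 2.42 and 3.81 CPM and its changes did not pass the test (-0.43 ± 0.25 and 0.03 ± 0.24). MYCN in H1650 had 7 and 6 reads at T0, 12 and 12 reads under erlotinib and 8 and 14 reads under osimertinib, too few to show a change (1.08, interval -0.34 to 2.49, and 0.86, interval -0.57 to 2.29).

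MAX (chr14:65006174-65102695, minus strand) lay between 62.1 and 71.5 CPM in all 6 PC9 libraries, and its changes there were -0.11 (95% interval -0.28 to 0.06) and -0.04 (-0.22 to 0.13). In H1650 it went from 28.4 and 28.0 CPM to 34.5 and 33.0 CPM under erlotinib and 36.3 and 35.1 CPM under osimertinib, with both treated groups above T0. The change was 0.26 ± 0.09 with erlotinib (adjusted p 0.0249) and 0.34 ± 0.09 with osimertinib (adjusted p 0.00338). The MAX call with erlotinib was lost in DESeq2 (0.24, adjusted p 0.0628), without the filter on low counts (0.24, adjusted p 0.0904) and without any 1 of H1650 T0 replicate 1 (0.27, 0.0884), H1650 T0 replicate 2 (0.25, 0.121), erlotinib replicate 1 (0.23, 0.145) and erlotinib replicate 2 (0.29, 0.0562).

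The response of each drug was compared between the lines by subtracting the log2 change in PC9 from that in H1650. For erlotinib 6 of 10 members differed (40.8% of all genes tested), and for osimertinib 4 of 10 (41.9%), against which a share of 6 in 10 lies above and a share of 4 in 10 close by. MXD4 rose more in PC9, by a log2 difference of -1.94 ± 0.14 with erlotinib and -1.95 ± 0.14 with osimertinib (adjusted p 4.7e-12 and 3.5e-12). MXI1 also rose more in PC9 (-1.34 ± 0.13 and -0.87 ± 0.14, adjusted p 3.2e-09 and 4.9e-06). MAX (0.37 ± 0.12 and 0.39 ± 0.12) and MXD3 (0.69 ± 0.19 and 0.70 ± 0.19) had the higher change in H1650 with both drugs. MXD1 differed with erlotinib (0.78 ± 0.17, adjusted p 5.4e-04), and with osimertinib it had 0.31 (95% interval -0.05 to 0.67). MYC differed with erlotinib by -0.32 ± 0.11 (adjusted p 0.0262), the lower change being in H1650, and with osimertinib had 0.23 (-0.01 to 0.46). MNT had -0.02 (-0.35 to 0.30) and -0.32 (-0.64 to 0.00).

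Several of these differences rested on single libraries. The MYC difference with erlotinib lost its call without PC9 T0 replicate 1 (-0.33, adjusted p 0.0548), PC9 T0 replicate 2 (-0.30, 0.0933), PC9 erlotinib replicate 2 (-0.32, 0.0520), H1650 T0 replicate 1 (-0.20, 0.255) or H1650 erlotinib replicate 1 (-0.23, 0.175), and also without the filter on low counts (-0.28, 0.0898). The MAX difference lost it with erlotinib without PC9 T0 replicate 1 (0.35, 0.0629), PC9 erlotinib replicate 1 (0.34, 0.0505) or H1650 T0 replicate 2 (0.37, 0.0507), and with osimertinib without PC9 T0 replicate 1 (0.36, 0.0512) or PC9 osimertinib replicate 1 (0.29, 0.0984). The MXD3 difference with erlotinib lost it without PC9 erlotinib replicate 2 (0.43, 0.0584). Without H1650 T0 replicate 1 the osimertinib difference passed the test for MYC (0.35, 0.0335) and for MYCL (0.88, 0.0279).

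**Figure D3:**
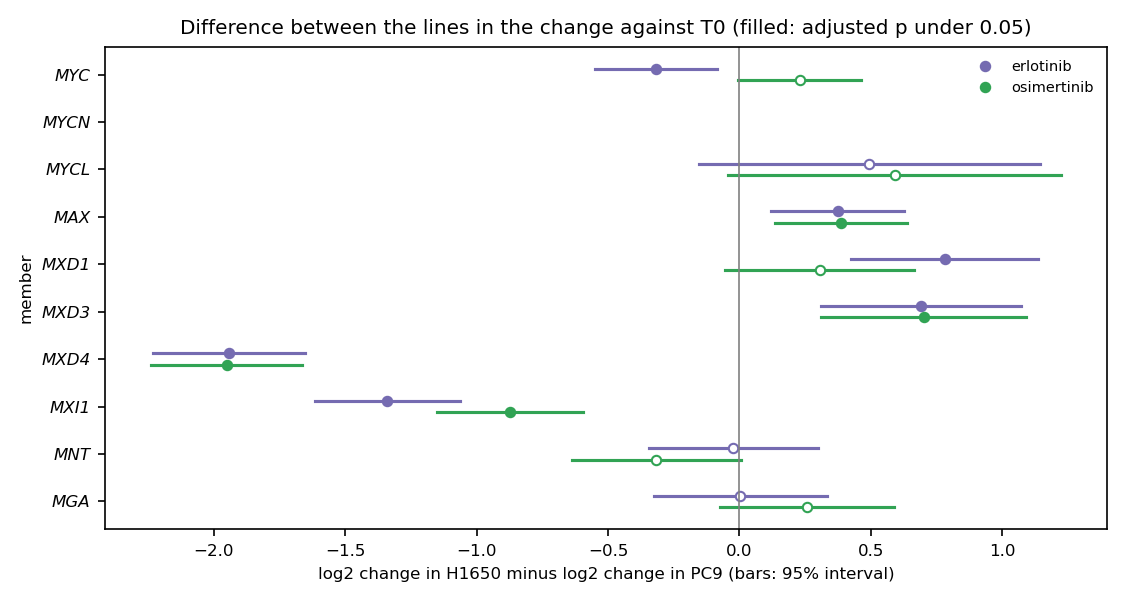
Log2 change against T0 in H1650 minus that in PC9 (horizontal axis) for each member and drug, with the 95% interval as a bar and filled points where the adjusted p was under 0.05. MXD4 lies at -1.94 and -1.95 and MXI1 at -1.34 and -0.87, on the side of a higher rise in PC9, and MYCN has no value because all PC9 libraries had 0 reads.

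Between treated groups, H1650 and PC9 differed in 10 of 10 members under erlotinib (72.1% of all genes tested) and in 8 of 10 under osimertinib (71.6%). Without MYCN, which had 0 reads in PC9, these were 9 of 9 and 7 of 9, the latter near the background. These comparisons were added after the data were seen. MYC remained lower in H1650, at -1.19 ± 0.08 under erlotinib and -0.65 ± 0.08 under osimertinib, as did MAX at -0.91 ± 0.09 and -0.90 ± 0.09. MXI1 was lower in H1650 by -0.68 ± 0.09 under erlotinib (adjusted p 6.9e-08) and -0.21 ± 0.09 under osimertinib (adjusted p 0.0303), and the MXI1 call under osimertinib was lost without PC9 osimertinib replicate 2 (-0.13, 0.273) or H1650 osimertinib replicate 1 (-0.18, 0.165), and without the filter on low counts (-0.19, 0.128). The MGA value under erlotinib (-0.28) lost its call without PC9 erlotinib replicate 2 (-0.12, 0.425) or H1650 erlotinib replicate 1 (-0.12, 0.401). The mean of MYCN in H1650 was 4.38-fold under erlotinib and 2.99-fold under osimertinib of what 3 reads in each PC9 library would give. These folds leave out the counting error of the H1650 libraries, which had 12 and 12 reads under erlotinib and 8 and 14 under osimertinib.

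Set side by side at their unequal doses, 0.1 μM osimertinib and 10 μM erlotinib differed in 3 of 10 members in PC9 (16.6% of all genes tested) and in 2 of 10 in H1650 (8.75%). In PC9, MYC was lower under osimertinib by a log2 difference of -0.51 ± 0.08 (adjusted p 2.6e-05) and MXI1 by -0.42 ± 0.09 (adjusted p 6.6e-04), while MXD4 was higher by 0.30 ± 0.09 (adjusted p 0.0202). The MXD4 call in PC9 was lost without erlotinib replicate 2 (0.22, 0.189) or osimertinib replicate 1 (0.25, 0.177). In H1650, MXD4 was higher by 0.29 ± 0.09 (adjusted p 0.0491) and MXD1 lower by -0.38 ± 0.12 (adjusted p 0.0421). For MYC in H1650 the difference was 0.04 (95% interval -0.14 to 0.21). In DESeq2 the adjusted p was 0.0503 for MXD4 and 0.0676 for MXD1, so that it called 0 members there, with 3 at an unadjusted p under 0.05. The H1650 call of MXD4 was also lost without either PC9 T0 library (0.0558 and 0.0563), either PC9 osimertinib library (0.0539 and 0.0535), H1650 erlotinib replicate 2 (0.22, 0.321) or H1650 osimertinib replicate 1 (0.15, 0.572). That of MXD1 was lost without either PC9 T0 library (0.0520 and 0.0514) or any 1 of the 4 treated H1650 libraries (adjusted p 0.117 to 0.223), and without the filter on low counts (-0.37, 0.101). MYCL was higher under osimertinib in H1650 by 0.56 ± 0.19 (adjusted p 0.0707), and it passed the test without H1650 erlotinib replicate 1 (0.89, 0.0148), either H1650 T0 library (0.0430 and 0.0439) or either PC9 erlotinib library (0.0475).

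To set the members against each other, their TPM were summed over the 9 partners that compete for MAX. The partner pool rose from 154 ± 0.526 TPM at T0 to 228 ± 8.73 under erlotinib and 200 ± 2.99 under osimertinib in PC9, and from 143 ± 12.9 to 174 ± 5.78 and 172 ± 7.13 in H1650 (SD, n = 2). The summed TPM of MXD1, MXD3, MXD4 and MXI1 went from 33.2 ± 0.803 to 103 ± 5.64 and 102 ± 2.61 in PC9, and from 67.3 ± 5.57 to 103 ± 7.07 and 101 ± 5.74 in H1650. The lines thus differed in this sum at T0, and their treated libraries overlapped between 97.3 and 108 TPM. The sum contains MXD3, whose counts are uncertain because its exons overlap those of RAB24 and PRELID1. MXD3 stood at 29.1 TPM at T0, 32.0 under erlotinib and 27.9 under osimertinib in H1650, and at 10.6, 6.99 and 6.08 in PC9. The overlap of the treated libraries thus depends on the MXD3 counts, and no sum without MXD3 was computed.

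The MYC family made up 59.3% ± 0.0766 of the partner pool in PC9 at T0, 39.4% ± 1.46 under erlotinib and 31.3% ± 1.59 under osimertinib. In H1650 it made up 39.7% ± 1.62, 28.1% ± 1.13 and 29.4% ± 0.686. Each treated library lay below each T0 library of its line. The ratio of MYC to the summed MXD group fell from 2.64 and 2.71 in the PC9 T0 libraries to 0.825 and 0.886 under erlotinib and 0.563 and 0.615 under osimertinib, and from 0.770 and 0.735 in H1650 to 0.372 and 0.443 and to 0.392 and 0.421. In PC9 under erlotinib, MYC TPM itself was at 88.1 and 87.6 beside 89.2 and 88.4 at T0, and the lower ratio came with the higher MXD4 and MXI1. These are descriptions of mRNA over 2 libraries a group, with no test, and protein was not analysed here. With the merged exon lengths of GENCODE 29, which are shorter for MYC, MAX and MXI1, the ratio ran 3.87, 1.20 and 0.849 in PC9 and 1.10, 0.586 and 0.586 in H1650, in the same order of groups. With these lengths the MYC family made up 68.2%, 48.0% and 39.6% of the pool in PC9 and 48.3%, 35.0% and 36.2% in H1650. The printed SDs do not include this dependence on the lengths. They also leave out the uncertainty of the MXD3 counts, which enter both the pool and the ratio. The GENCODE 29 setting was chosen after the data were seen, and it put the erlotinib ratio in PC9 and the T0 ratio in H1650 above 1.

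Partner mRNA per MAX mRNA was 4.13 ± 0.0565 at T0 in PC9, 6.59 ± 0.414 under erlotinib and 5.68 ± 0.613 under osimertinib. In H1650 it was higher at T0 (8.95 ± 0.578) and stood at 8.71 ± 0.0796 and 8.47 ± 0.107 under the drugs. In PC9 the treated libraries lay above T0, whereas in H1650 the T0 and treated libraries overlapped.

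**Figure D4:**
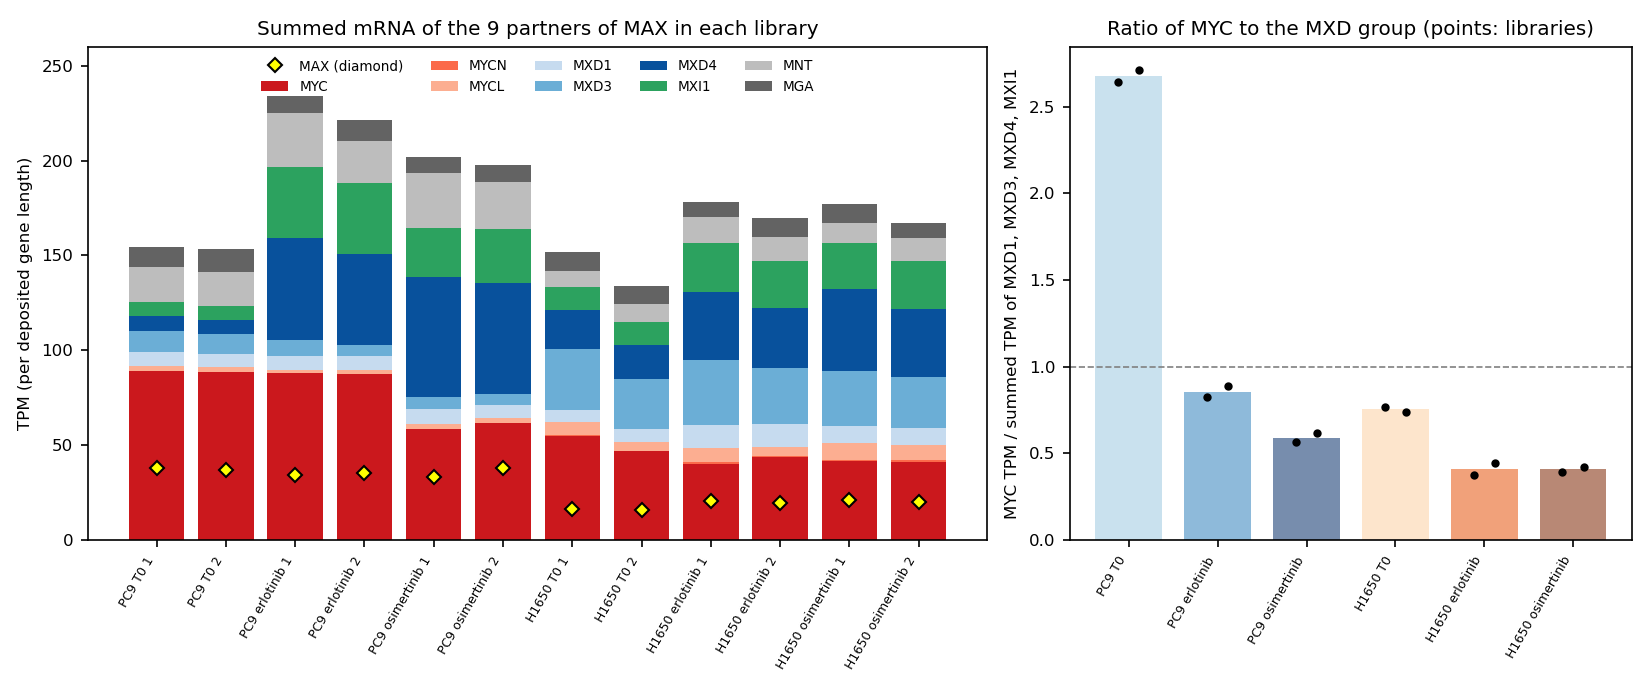
Left, TPM of the 9 MAX partners stacked in each of the 12 libraries (vertical axis), with MAX as a diamond. Right, the ratio of MYC TPM to the summed TPM of MXD1, MXD3, MXD4 and MXI1 with each library as a point, the mean of 2 libraries as a bar and a dashed line at 1, which falls from 2.68 at T0 to 0.855 and 0.589 in PC9 and from 0.752 to 0.407 with either drug in H1650.

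The surrounding pathway was described with lists of known genes. Among E-box targets of MYC, which serve polyamine and nucleotide synthesis, ribosome assembly and protein folding, 29 of 32 genes were tested, since CCND2 and IPO4 were below the filter and BOP1 is not in the table. Of the 29, 27 fell and 2 rose in PC9 under erlotinib, 28 fell and 1 rose in PC9 under osimertinib, 25 fell and 2 rose in H1650 under erlotinib, and 24 fell and 1 rose in H1650 under osimertinib. TERT, with 0 reads in PC9 under erlotinib, is counted among the 27 there, though it has no fold. The list's median log2 change was -1.18, -1.50, -0.46 and -0.56 in that order, against medians of all genes between 0 and 0.07. Of all genes tested, 29.1%, 28.7%, 18.5% and 17.9% were called lower in these comparisons, and 32.7%, 32.7%, 18.0% and 17.8% higher. The fall was seen in PC9 under erlotinib as well, where MYC mRNA was level with T0. MYC protein was not analysed here, and a link between MYC and the fall was not tested.

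ODC1, which makes the first polyamine, went from 535 and 550 CPM at T0 in PC9 to 74.9 and 79.9 CPM under erlotinib and 59.0 and 60.8 CPM under osimertinib (log2 -2.81 ± 0.08 and -3.18 ± 0.08). In H1650 ODC1 went from 93.8 and 86.4 CPM to 62.7 and 67.2 CPM and to 53.6 and 51.7 CPM (-0.47 ± 0.08 and -0.77 ± 0.08). SRM, which makes spermidine, changed by -2.20 and -2.37 in PC9 and -1.11 and -0.94 in H1650, and MRTO4, a ribosome assembly factor, by -2.01 and -2.28 and by -0.75 and -0.77, all passing the test. The genes that rose, named after their values were seen, were BCAT1, a branched-chain amino acid transaminase (1.06, 0.71, 0.86 and 0.29), and SHMT2, the mitochondrial serine hydroxymethyltransferase, which rose with erlotinib (0.94 in PC9 and 0.76 in H1650) and fell with osimertinib (-0.66 and -0.40). The list's changes differed between the lines in 25 of 29 genes with erlotinib and 26 of 29 with osimertinib, against 40.8% and 41.9% of all genes. The lower log2 change was in PC9 for 24 and 25 of them. At T0, 21 of the 29 were called lower in H1650 than in PC9 and 1 higher (69.6% of all genes in either direction). Between treated groups, H1650 was called lower in 11 and higher in 15 under erlotinib, and lower in 7 and higher in 18 under osimertinib (72.1% and 71.6% of all genes in either direction).

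**Figure D5:**
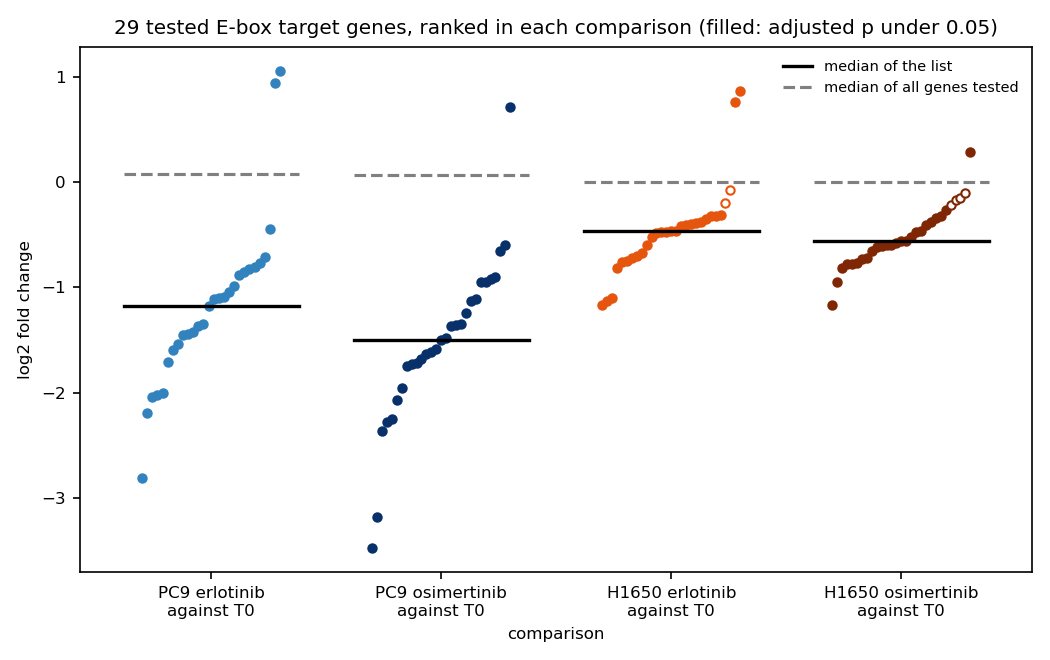
Log2 fold change against T0 (vertical axis) of the 29 tested E-box target genes of MYC, ranked from left to right within each comparison, with filled points where the adjusted p was under 0.05. TERT has no point in PC9 under erlotinib, where it had 0 reads, but it enters the median. The list's median (solid line) lies at -1.18 and -1.50 in PC9 and at -0.46 and -0.56 in H1650, below the median of all genes tested (dashed line).

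Of 12 cofactors through which MYC acts on chromatin, 7 fell in PC9 under erlotinib, 8 under osimertinib, and 6 and 7 in H1650, and the other genes did not pass the test (list medians -0.32, -0.36, -0.23 and -0.25, against 0.07, 0.06, 0.01 and 0 over all genes). Genes called lower made up 29.1%, 28.7%, 18.5% and 17.9% of all genes, and counted in either direction the PC9 calls of this list, 7 and 8 of 12, lay near the 61.8% and 61.4% of all genes. ACTL6A, a subunit of several chromatin remodellers (-1.28, -1.32, -0.47 and -0.47), RUVBL1 (-1.09, -1.36, -0.38 and -0.51) and WDR5, a histone methyltransferase scaffold that binds MYC (-1.05, -1.22, -0.39 and -0.49), fell in each comparison. RUVBL1, an ATPase of the TIP60 complex, went from 187 ± 2.65 CPM to 87.8 ± 1.599 and 72.8 ± 2.90 in PC9 and from 75.2 ± 9.29 to 57.8 ± 3.76 and 52.9 ± 0.344 in H1650. Without H1650 T0 replicate 1 the number of cofactors called in H1650 under osimertinib was 4.

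Among 13 genes of MYC protein turnover, 2 rose and 6 fell in PC9 under erlotinib, 3 rose and 7 fell under osimertinib, and in H1650 1 rose and 3 fell, then 2 rose and 5 fell. In either direction these are 8, 10, 4 and 7 of 13 genes, beside 61.8%, 61.4%, 36.5% and 35.7% of all genes, so with erlotinib the count is near or below the background in both lines. FBXO32, an F-box ubiquitin ligase subunit and a known FOXO target, rose from 6.61 ± 0.289 CPM to 80.5 ± 2.85 and 89.3 ± 3.44 in PC9 (log2 3.61 and 3.75) and from 24.2 ± 0.0103 to 55.6 ± 2.62 and 71.6 ± 1.03 in H1650 (1.20 and 1.57). CIP2A, an inhibitor of PP2A that protects MYC, and AURKA, a mitotic kinase that binds MYCN, fell in each comparison. CIP2A changed by -2.96 (erlotinib) and -2.95 (osimertinib) on the log2 scale in PC9, and by -1.03 and -1.04 in H1650. AURKA changed by -2.92 (erlotinib) and -2.98 (osimertinib) in PC9, and by -0.66 and -0.72 in H1650.

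The corepressors recruited by MXD proteins and MNT split in direction. Of 13 genes of the SIN3 and NCOR complexes, 6 rose and 7 fell in PC9 under erlotinib, 5 rose and 7 fell under osimertinib, and in H1650 4 rose and 3 fell, then 5 rose and 2 fell. Of all genes, 32.7%, 32.7%, 18.0% and 17.8% were called higher and 29.1%, 28.7%, 18.5% and 17.9% lower. ARID4A, a scaffold of the SIN3 complex, rose in each comparison (0.83, 1.05, 0.32 and 0.39), and ARID4B rose in PC9 (0.82 and 0.92). SAP30 fell in PC9 (-2.02 and -2.01) and with osimertinib in H1650 (-0.66). In the Polycomb complex that holds MGA, 3 of 11 genes rose and 7 fell in PC9 with either drug, and in H1650 2 rose with either drug while 3 and 4 fell. The genes called higher were below the 32.7% of all genes in PC9 and close to the 18.0% and 17.8% in H1650, and in either direction the H1650 calls, 5 and 6 of 11, stand beside 36.5% and 35.7% of all genes. TFDP1, the E2F partner, fell in PC9 (-1.46 and -1.62), while its paralogue TFDP2 (1.38, 1.56, 0.47 and 0.52) and the ubiquitin ligase RING1 (1.05, 1.03, 0.25 and 0.26) rose in each comparison. Both lists were unsteady in H1650. Leaving out 1 library gave 3 to 7 corepressor genes called with either drug, with 3 called without H1650 T0 replicate 1 or H1650 erlotinib replicate 2 and 4 without H1650 T0 replicate 2 under erlotinib, and 3 without H1650 osimertinib replicate 1 under osimertinib. Of the Polycomb genes 3 were called under erlotinib without either H1650 T0 library or without H1650 erlotinib replicate 1.

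MLX heads a parallel network in which MLXIP and MLXIPL sense glucose and drive TXNIP. TXNIP, an arrestin that limits glucose uptake, went in PC9 from 115 and 119 CPM to 495 and 544 CPM under erlotinib and 522 and 543 CPM under osimertinib (log2 2.15 and 2.19). In H1650 TXNIP rose with erlotinib (0.47) and changed by -0.02 with osimertinib. ARRDC4, a related arrestin, fell in H1650 (-0.35 and -1.01) and had 0.23 and 0.02 in PC9, which did not pass the test. MLXIP rose in PC9 (0.42 and 0.64) and fell in H1650 (-0.62 and -0.37), and the difference between the lines passed the test with both drugs (-1.04 and -1.01, adjusted p 2.5e-09 and 3.6e-09). MLXIPL rose in 3 comparisons (1.31 and 0.49 in PC9, 1.08 and 0.87 in H1650), the exception at adjusted p 0.0512 being PC9 under osimertinib. MLX fell in PC9 under erlotinib (-0.35), and its other changes (-0.23, 0.19 and 0.23) did not pass the test. Of the 5 genes of this list, 2 were called in PC9 under osimertinib, beside 61.4% of all genes, and this count was higher without PC9 osimertinib replicate 2. Of 12 genes listed as RNA genes beside or antisense to the members or as their pseudogenes, PVT1, beside MYC, was the single one tested. PVT1 changed by -0.11 and -0.13 in PC9 and fell in H1650 (-0.55 and -0.36).

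Likeness of pattern was measured as Pearson's r of log2 CPM over the 6 group means, which share their line and T0 groups, and is given as a description. MXD4 and MXI1 had an r of 0.958 with each other. Among 10293 genes with a mean of at least 10 CPM, MXD4 was most like NCKAP5L, FAM214A and TFDP2 (0.998, 0.997 and 0.997), and MXI1 was most like RBM43, SPPL2B and ZBTB22 (0.995, 0.994 and 0.993). MYC was most like RPL36, MAP2K2 and C12orf10 (0.997, 0.996 and 0.994), and MAX most like ANTKMT, ADGRF5 and FCHO1 (1.00, 0.998 and 0.998). MNT was most like PLEKHA6, LTBP3 and KCNK1, MXD3 like HECTD2, CHCHD10 and BRD7, and MGA like DDX31, C12orf45 and SNHG4, with r between 0.985 and 0.999. MYCL was most like LMAN2, MFAP1 and COQ10B and MYCN like ADIPOR1, ITIH5 and TTC39C, while the best matches of MXD1, ARHGEF35, ANKH and GOLGA2P5, reached 0.932, 0.926 and 0.918. MYCN had 0 reads in all PC9 groups, so its matches rest largely on the difference between the lines.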

How the data were processed

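RNA of 12 libraries was sequenced by the authors, who processed the reads with the DolphinNext pipeline. The authors deposited whole-number counts per gene from featureCounts, without normalization, on GRCh38 per the submitters' processing notes, together with a length in bases for each gene. The aligner, the annotation release and the strandedness are not given in the sources used here. No column was left unmapped, and samples were grouped by their labels.

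The tests were run on these counts in edgeR 4.0.16 (R 4.3.3), where filterByExpr by group kept 19108 genes (at least 99.9% of counts), TMM factors lay between 0.941 and 1.08, and 1 quasi-likelihood model with 6 groups was fitted to all libraries (6 residual and 20.7 prior degrees of freedom). The standard error is the absolute log2 change divided by the square root of F. Adjusted p-values are Benjamini-Hochberg values over all genes tested. With 2 libraries a group, SDs are imprecise. The members and the gene lists were chosen with earlier results of these data known. The text names all members, the MLX genes, up to 3 genes per list with the highest mean absolute change and a mean of at least 10 CPM, and the 3 genes most like each member.

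Replicates differed by more than sampling noise (chi-square per degree of freedom 4.02 to 7.13). Over all genes tested, the deviations of libraries with the same replicate number correlated weakly (-0.0671 to 0.0947, 0 of 15 pairs of groups over 0.1). Yet MXD4 and MXD3 were higher in replicate 1 than in replicate 2 in every group. The correlations therefore do not settle whether the replicate numbers pair the libraries. Gene positions and exon overlaps come from GENCODE 29 and promoters from RefSeq. The procedure was tested on simulated data. Results were recomputed with DESeq2 1.42.0, with RLE or upper quartile factors, without the filter, with at least 10 counts in every library, a fit per cell line, a replicate block, and leaving out each library.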

Additional observations from a re-analysis of the deposited data

Results flagged for a closer look

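For 6 members the change against T0 differed between the lines in edgeR's test of the difference itself (H1650 minus PC9, log2 scale, 2 libraries in each group). With erlotinib the differences were -1.94 for MXD4, -1.34 for MXI1, -0.32 for MYC, 0.37 for MAX, 0.78 for MXD1 and 0.69 for MXD3. With osimertinib they were -1.95 for MXD4, -0.87 for MXI1, 0.39 for MAX and 0.70 for MXD3. The calls for MYC with erlotinib, MAX with both drugs and MXD3 with erlotinib were lost without single libraries, while that for MXD3 with osimertinib was kept without any 1 library. The MXD3 exons overlap those of RAB24 and PRELID1. The part of the neighbours' reads was not tested.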

How the results depend on the processing

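Of 1941 values of the 105 member results under the alternatives, 1829 kept their direction and side of the threshold, 54 lost a call, 17 gained one and 41 changed sign, and RLE normalization changed none of its 105. Leaving out 1 library gave 1260 of these values. In many of them the library left out takes no part in the comparison and acts only through the shared fit, so the total overstates how steady the results are. The all-gene median moved by -0.0785 to 0.0907 (log2) under another scaling. The number of members called in H1650 under osimertinib against erlotinib was 2, and it was 0 in DESeq2 (with 3 at an unadjusted p under 0.05), 1 with at least 10 counts in every library and 1 with a fit per cell line. Leaving out 1 library gave 0 to 3 there and 3 to 6 in H1650 under erlotinib against T0. Without the filter on low counts 4 member calls were lost. The cause was not tested.

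Signs changed for log2 values near 0. Under upper quartile normalization MYC and MXD1 were 0.069 and 0.076 in PC9 with erlotinib, MAX was 0.028 in PC9 with osimertinib, and the erlotinib difference between the lines was -0.078 for MGA. With at least 10 counts in every library these values were 0.027, 0.034, 0.0039 and -0.026. Without the filter, MYCL and MXD1 were -0.051 and -0.0048 in PC9 with osimertinib and the erlotinib difference of MNT was 0.014. With a fit per cell line MYCL was -0.027 in PC9 with osimertinib.

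Leaving out 1 library moved MXD1 in PC9 from -0.105 to 0.071 (erlotinib) and from -0.0098 to 0.17 (osimertinib), and MYCL and MAX with osimertinib in PC9 from -0.0053 to 0.065 and from -0.15 to 0.055. In H1650 with erlotinib MYCL ran from -0.26 to 0.34, MXD3 from -0.051 to 0.20 and MGA from -0.34 to 0.012, and with osimertinib MXD3 ran from -0.19 to 0.067 and MGA from -0.22 to 0.036. The erlotinib difference between the lines ran from -0.19 to 0.16 for MNT and from -0.17 to 0.18 for MGA. Osimertinib against erlotinib ran in PC9 from -0.035 to 0.17 for MAX, -0.41 to 0.15 for MXD3 and -0.038 to 0.32 for MNT, and in H1650 from -0.031 to 0.11 for MYC, -0.61 to 0.087 for MYCN and -0.10 to 0.25 for MGA. H1650 against PC9 under osimertinib ran from -0.17 to 0.089 for MGA.

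Whether the replicate numbers pair the libraries was not settled. A fit with the replicate number as a block took away no member's call and added 3, for MNT in H1650 with osimertinib (0.28, adjusted p 0.0300), MYC in the osimertinib difference between the lines (0.23, 0.0439) and MYCL in H1650 under osimertinib against erlotinib (0.57, 0.0227). Under the block 4 of 5 genes of the MLX network were called in PC9 with osimertinib and 7 of 13 turnover genes in H1650 with erlotinib. Without it these were 2 and 4, beside 61.4% and 36.5% of all genes.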
